A study of Mus musculus with 6 samples.

Results

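The RNA levels of 10 genes of oxidative stress defence were compared between samples sorted as muscle stem cells from Lmna mutant and wild-type mice. The 10 were the transcription factor NRF2 (gene Nfe2l2), its repressor Keap1, and the enzymes Nqo1, Hmox1, Txnrd1, Srxn1, Gsr, Sod1, Sod2 and Cat. They were taken by name from 39059 genes in the count files, and all 10 were matched and passed the filter on low counts. RNA was made from satellite cells, which repair skeletal muscle after damage and were sorted by flow cytometry from hind-limb muscle and not cultured. 3 libraries, labelled HOM, came from mice homozygous for Lmna Δ8-11 (Lmna Δ8-11 -/-), an allele without exons 8 to 11 of the lamin A/C gene, and 3, labelled WT, from wild-type mice (Lmna Δ8-11 +/+). All were of strain C57BL/6J and at postnatal day 19. The labels name 3 mice per condition but do not tie a library to an animal, so p-values measure the spread between these libraries, which may be partly technical.

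NRF2 switches on genes that detoxify reactive compounds and keep the cell's thiols reduced. In unstressed cells KEAP1, an adaptor of a CUL3 ubiquitin ligase, holds NRF2 and sends it to the proteasome, and oxidation of KEAP1 cysteines lets NRF2 build up, enter the nucleus and bind antioxidant response elements together with small MAF proteins. Control is therefore largely at the level of protein, which RNA counts do not measure. In muscle, NRF2 has been studied for its part in regeneration and in the response to exercise.

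Reads assigned to genes numbered 6613636 to 9552751 per library. Lmna stood at 436, 375 and 451 CPM (read counts relative to library totals scaled with TMM factors) in HOM replicates 1 to 3 and at 842, 939 and 1060 CPM in WT replicates 1 to 3, with no overlap (log2 change, HOM minus WT, -1.17, SE 0.14, with adjusted p = 0.0010). Its count covers undeleted exons too. Of 8 satellite cell markers, none at 0, 6 were lower in HOM libraries (median log2 change -1.35), and they summed to 1090 to 1520 CPM in HOM and 2000 to 2030 CPM in WT libraries. The most abundant, Sdc4, was at 580 to 705 and 689 to 845 CPM, while Cdh15 was at 4.76 to 20.9 and 51.7 to 80.7 CPM. Markers of smooth muscle and pericytes (8 genes) summed to 11400 to 12500 and 11400 to 16200 CPM, and those of Schwann cells (8 genes) to 4040 to 5640 and 5260 to 6720 CPM. Of 8 adipocyte markers 5 were tested and all 5 were higher (median log2 change 5.58). The sum of the 8 adipocyte markers was 462, 498 and 1080 CPM in HOM replicates 1 to 3 and 196 to 319 CPM in WT libraries. It was mostly Fabp4, at 180 to 293 CPM in WT libraries. Cfd had 2832 reads over the HOM and 2 over the WT libraries, Cidec 728 and 1, and Adipoq 410 and 8. Cfd, Cidec and Adipoq could pass the filter on low counts only through HOM libraries, so they could not have been called lower. The count of higher markers and their median log2 change rest partly on that filter. Fabp4 and Lipe, with reads in every library, had 11067 and 1076 reads over the HOM and 5566 and 468 over the WT libraries. Markers of fibro-adipogenic progenitors (8 genes) summed to 1150 to 1390 CPM in HOM and 1860 to 2050 CPM in WT libraries, with 1 higher, 4 lower and a median log2 change of -0.82, and endothelial markers (8 genes) to 312 to 616 and 411 to 677 CPM, with 0 called and a median of -0.34. Erythroid markers (8 genes) summed to 217 to 886 CPM in HOM and 900 to 1600 CPM in WT libraries, and macrophage markers (10 genes) to 36.6 to 56.0 and 38.8 to 66.3 CPM. Y-linked reads numbered 4498 in HOM replicate 2, 3074 in WT replicate 2 and 4831 in WT replicate 3 and 0 to 3 in the other libraries, so the genotypes were not balanced for sex. No marker in these lists was at 0 in every library. Marker sums of smooth muscle and pericytes and of Schwann cells were above that of satellite cells in every library. The sums of satellite cell, fibro-adipogenic progenitor, erythroid and adipocyte markers did not overlap between genotypes. The values of the 10 genes therefore cannot be assigned to satellite cells alone. In bulk RNA, fewer cells of a type and less RNA per cell cannot be told apart.

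The core of the antioxidant response element, TGACNNNGC on either strand, was looked for in RefSeq promoter windows (build GRCm38.p6) from 250 bases before to 50 bases after each annotated start. Windows were given for 8 of the 10 genes, Gsr and Hmox1 not being among them, and 4 of the 8 held the core (Nfe2l2, Srxn1, Txnrd1 and Sod1), against 14.0% of 27025 genes with a window. For Txnrd1 it lay in 1 of 3 windows, and for Srxn1 it lay just after the start. Upstream of the start, Srxn1 held 2 matches to a variant core, TGAGNNNGC, which was in 17.6% of 32851 windows. The stretches before the start are shown because they match the core, or its variant, of the element that the NRF2-MAF dimer binds. Each is written 5′ to 3′ on the gene's strand, with the match in capitals; a match on the other strand reads as its reverse complement.

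Nfe2l2, core, chr2:75704870-75704913, minus strand: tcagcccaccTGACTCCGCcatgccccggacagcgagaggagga

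Txnrd1, core on the other strand, chr10:82859089-82859147, plus strand: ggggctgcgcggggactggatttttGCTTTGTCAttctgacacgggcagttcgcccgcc

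Sod1, core on the other strand, chr16:90220681-90220739, plus strand: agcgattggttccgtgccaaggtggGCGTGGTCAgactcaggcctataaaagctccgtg

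Srxn1, variant core on the other strand, chr2:152105341-152105399, plus strand: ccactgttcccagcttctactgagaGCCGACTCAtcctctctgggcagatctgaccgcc

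Srxn1, variant core, chr2:152105454-152105512, plus strand: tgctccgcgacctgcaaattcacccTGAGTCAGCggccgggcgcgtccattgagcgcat

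These matches are a description of letters, not of NRF2 binding, which was not measured. The Nfe2l2 stretch lies in an exon of E030042O20Rik, a processed transcript. In the HOM and WT libraries none of the 4 genes with the core in a window passed the test between genotypes. Over all genes tested 21.1% did so. The other genes of the set did not pass either, so this count does not bear on the core.

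None of the 10 genes differed between genotypes past the threshold of 0.05 on the adjusted p of edgeR's quasi-likelihood test, where 21.1% of 14099 genes tested did so. DESeq2's Wald test also called 0 of the 10, where it called 2710 of 16034 genes. At an unadjusted p under 0.05 the count was 1 of 10 with edgeR, Nqo1, against 35.9% of all genes tested. HOM and WT values in CPM overlapped for all 10, while they did not overlap for 40.7% of genes tested. The overlap depended on the scaling. On library totals without TMM factors the values of Nqo1 did not overlap, and per exon length (TPM) those of Nqo1 and Sod1 did not, against 33.5% of 14077 genes, on a scale where the median log2 ratio of HOM to WT means over all genes was -0.16. 7 log2 fold changes, HOM minus WT, lay above 0 and 3 below, from -0.18 to 0.64 with a median of 0.14, where the median over all genes tested was 0.00. The 95% interval of the change lay within 1.5-fold either way for 9 of the 10 genes, Nqo1 being the exception. The same held for 34.9% of all genes tested. The 1.5-fold bound was chosen after the values were seen. The highest bound of those 9 was 1.49-fold, so the contrast with all genes rests on that choice. The count was 8 on library totals, with the replicate number as a block and with Y-linked reads as a covariate. The count was 7 without HOM replicate 1, 4 without HOM replicate 2, 7 without HOM replicate 3, 7 without WT replicate 1, 5 without WT replicate 2 and 6 without WT replicate 3. Fewer libraries tend to widen intervals, but estimates moved too. Without HOM replicate 2 the log2 fold changes of Txnrd1, Sod2, Cat and Gsr were 0.33, 0.36, 0.31 and 0.29. In the main fit they were 0.23, 0.24, 0.18 and 0.12. Their SEs were 0.14, 0.14, 0.14 and 0.17, against 0.14, 0.15, 0.15 and 0.19 in the main fit. That of Srxn1 rose from 0.16 to 0.17, with a log2 fold change of -0.24 against -0.18. How far the counts depend on a particular library was not tested. For Txnrd1 the log2 fold change stayed at 0.23 without HOM replicate 3, while its SE rose from 0.14 to 0.17.

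**Figure D1:**
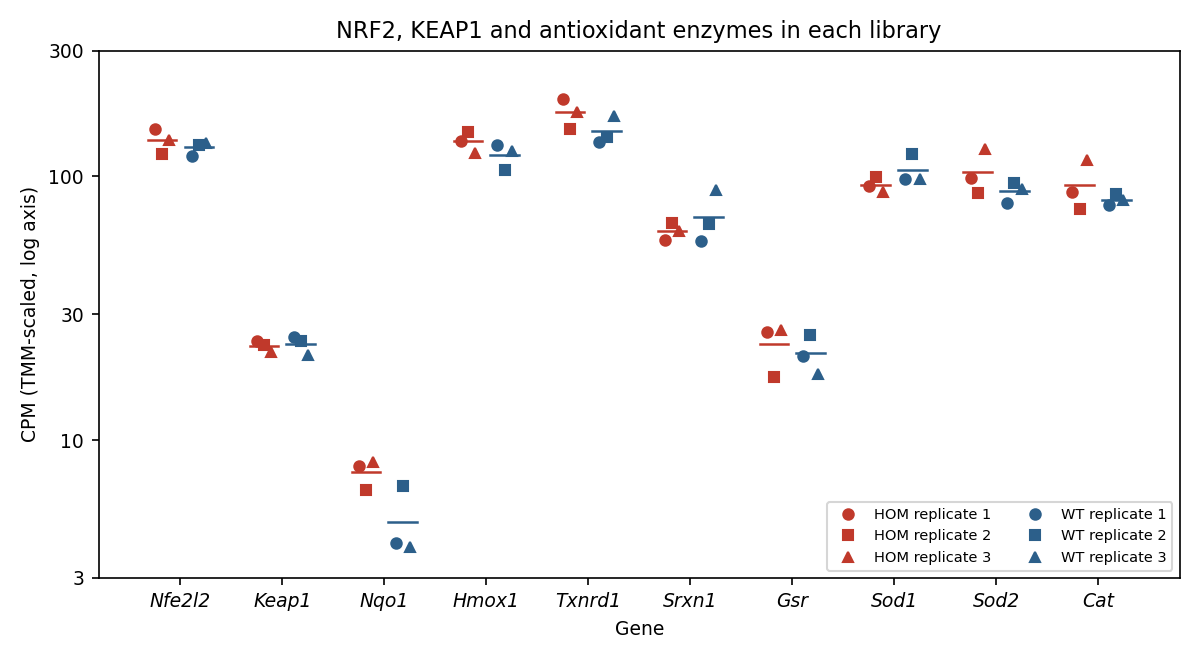
CPM (log axis) of each of the 10 genes in every library, HOM in red and WT in blue, with the replicate shown by the marker and the group mean by a line. The HOM and WT points overlap in CPM for every gene, and Nqo1, where WT replicate 2 (6.68 CPM) lies above HOM replicate 2 (6.47 CPM), has the widest gap between means.

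The regulators did not differ detectably. Nfe2l2 (ENSMUSG00000015839, chr2:75675513-75704641, minus strand) stood at 152, 122 and 137 CPM in HOM replicates 1 to 3 and at 120, 132 and 134 CPM in WT replicates 1 to 3. HOM replicate 1 was the highest of the 6 and WT replicate 1 the lowest, and the groups overlapped. The log2 fold change was 0.09 (SE 0.12, 95% interval -0.17 to 0.35, adjusted p = 0.616). Keap1 (ENSMUSG00000003308, chr9:21229730-21239361, minus strand) was at 23.8, 23.0 and 21.6 CPM in HOM and at 24.5, 23.8 and 21.1 CPM in WT libraries. It was the steadiest of the 10, with a coefficient of variation of 5.94% over the 6 libraries, and its log2 fold change was -0.02 (SE 0.13, 95% interval -0.31 to 0.27, adjusted p = 0.920). 510 bases of its 4693 exonic bases overlap Gm16754 on the opposite strand, and reads of the pair may be shared. The ratio of Nfe2l2 to Keap1, each per length of merged exons, was 7.92, 6.57 and 7.83 in HOM and 6.06, 6.82 and 7.88 in WT libraries, overlapping ranges.

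Among the quinone and haem enzymes Nqo1 had the largest difference of the set. NQO1 reduces quinones by 2 electrons, which avoids reactive semiquinones, and its RNA is a common readout of NRF2 activity. Nqo1 (ENSMUSG00000003849, chr8:107388225-107403206, minus strand) was scarce, at 57, 61 and 63 reads or 7.97, 6.47 and 8.25 CPM in HOM libraries and 35, 42 and 31 reads or 4.05, 6.68 and 3.94 CPM in WT libraries. WT replicate 2 lay above HOM replicate 2, and the other WT libraries below all HOM libraries. In TPM the order of these libraries turned, with 6.36 in WT replicate 2 and 6.39 in HOM replicate 2. The means were 7.56 ± 0.96 and 4.89 ± 1.55 CPM (SD, n = 3), a 1.56-fold difference (log2 change 0.64, SE 0.26, 95% interval 0.07 to 1.21), with an unadjusted p = 0.0315 and an adjusted p = 0.101 by edgeR. Without WT replicate 2 the log2 fold change was 0.91 (adjusted p = 0.0418), and without HOM replicate 2 and WT replicate 2 together it was 1.02 (adjusted p = 0.0119). Over all alternatives its adjusted p ran from 0.0119 to 0.290 and its log2 fold change from 0.51 to 1.02.

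Hmox1 encodes haem oxygenase 1, which splits haem into biliverdin, iron and carbon monoxide and is strongly expressed in macrophages that clear red cells. Hmox1 (ENSMUSG00000005413, chr8:75093621-75100589, plus strand) stood at 136, 148 and 123 CPM in HOM and at 132, 106 and 125 CPM in WT libraries. WT replicate 2 was the lowest and HOM replicate 2 the highest, with the other 4 libraries between 123 and 136 CPM. Its log2 fold change was 0.17 (SE 0.12, 95% interval -0.11 to 0.44, adjusted p = 0.368), and it was 0.01 without the libraries numbered 2 in both genotypes. Of the 10 macrophage markers 8 were tested, with 1 higher, 0 lower and a median log2 change of -0.05. The higher one was Cd68, at 19.4, 9.22 and 16.0 CPM in HOM and 5.21, 3.50 and 7.24 CPM in WT libraries, while Adgre1 (F4/80) was at 0.655 to 1.17 and 1.16 to 1.78 CPM. The part of macrophage RNA in Hmox1 was not tested.

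The thiol reductases showed no difference past the threshold either. Txnrd1 encodes cytosolic thioredoxin reductase, a selenoprotein that restores thioredoxin with NADPH. Txnrd1 (ENSMUSG00000020250, chr10:82833951-82897712, plus strand) was at 197, 151 and 176 CPM in HOM and at 135, 141 and 169 CPM in WT libraries, with WT replicate 3 above HOM replicate 2. Its log2 fold change was 0.23 (SE 0.14, 95% interval -0.07 to 0.54, adjusted p = 0.253). Srxn1 encodes sulfiredoxin, which repairs overoxidised peroxiredoxins. Srxn1 (ENSMUSG00000032802, chr2:152105516-152111376, plus strand) was at 57.3, 66.8 and 62.1 CPM in HOM and at 56.8, 65.8 and 88.6 CPM in WT libraries. WT replicate 3 stood above the other 5 libraries, which lay between 56.8 and 66.8 CPM. The log2 fold change was -0.18 (SE 0.16, 95% interval -0.54 to 0.17, adjusted p = 0.444) and 0.02 without WT replicate 3. Gsr encodes glutathione reductase, which returns oxidised glutathione to its reduced form. Gsr (ENSMUSG00000031584, chr8:33652523-33698163, plus strand) was at 25.7, 17.4 and 26.2 CPM in HOM and at 20.9, 25.1 and 17.8 CPM in WT libraries. Each genotype spanned nearly the same range, and the log2 fold change was 0.12 (SE 0.19, 95% interval -0.31 to 0.55, adjusted p = 0.696).

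**Figure D2:**
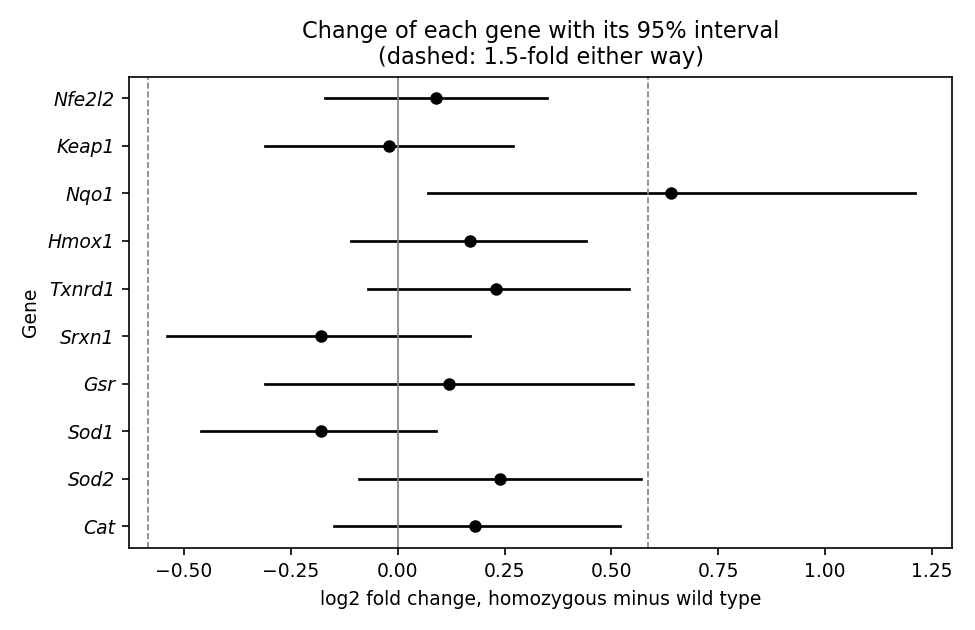
Log2 fold change, HOM minus WT, of each of the 10 genes (points) with its 95% interval (bars). Dashed lines mark 1.5-fold either way, a bound chosen after the values were seen. Intervals of 9 genes include 0 and stay within the dashed lines, and that of Nqo1 runs from 0.07 to 1.21.

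The superoxide dismutases turn superoxide into hydrogen peroxide, SOD1 in the cytosol and SOD2 in the mitochondrial matrix, and catalase breaks hydrogen peroxide down, mainly in peroxisomes. Sod1 (ENSMUSG00000022982, chr16:90220754-90226329, plus strand) was at 92.0, 99.7 and 87.6 CPM in HOM and at 98.1, 122 and 97.5 CPM in WT libraries. The highest HOM library lay above 2 of the WT libraries, whereas in TPM every HOM library (33.7 to 38.5) lay below every WT library (45.4 to 47.0). The log2 fold change was -0.18 (SE 0.12, 95% interval -0.46 to 0.09, adjusted p = 0.308). Sod2 (ENSMUSG00000006818, chr17:13006846-13040063, plus strand) was at 98.7, 86.4 and 127 CPM in HOM and at 79.4, 94.3 and 90.0 CPM in WT libraries. Cat (ENSMUSG00000027187, chr2:103453849-103485160, minus strand) was at 87.6, 75.6 and 115 CPM in HOM and at 77.8, 85.7 and 81.4 CPM in WT libraries. For both genes HOM replicate 3 was the highest library and HOM replicate 2 the lowest of its group. The log2 fold changes were 0.24 for Sod2 (SE 0.15, 95% interval -0.09 to 0.57, adjusted p = 0.267) and 0.18 for Cat (SE 0.15, 95% interval -0.15 to 0.52, adjusted p = 0.411). Without HOM replicate 3 they were 0.08 and 0.00. That library was also the highest in adipocyte markers, with Cfd at 280 CPM against 49.5 and 36.3 CPM in HOM replicates 1 and 2 and at most 0.127 CPM in WT libraries, and the part of adipocyte RNA in the values of Sod2 and Cat was not tested.

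Some libraries were the highest or lowest of their group for several of the 10 genes. In a group of 3 libraries 1 is always the highest and 1 the lowest, and the share over all genes was not counted. HOM replicate 2 was the lowest HOM library for 6 genes (Nfe2l2, Nqo1, Txnrd1, Gsr, Sod2 and Cat) and the highest for the 3 genes Hmox1, Srxn1 and Sod1. HOM replicate 3 was the highest for 4 genes (Nqo1, Gsr, Sod2 and Cat). WT replicate 2 was the highest WT library for 5 genes (Nqo1, Gsr, Sod1, Sod2 and Cat) and the lowest for Hmox1. HOM replicate 2 and WT replicate 2 stood apart in Gm42418, an RNA with sequence like ribosomal RNA, which took 1.3 and 1.39% of their gene reads against 0.09 to 0.18% in the other 4 libraries. HOM replicate 2 was also the only HOM library with more than 3 Y-linked reads. Without HOM replicate 2 and WT replicate 2, edgeR called 1 of the 10 genes, Nqo1, and 4 had an unadjusted p under 0.05. Over all 14359 genes tested in that fit 3858 were called and 5533 had an unadjusted p under 0.05. The adjusted p was then 0.0540 for Sod2, 0.0983 for Cat and 0.0741 for Gsr, with log2 fold changes of 0.41, 0.35 and 0.42. Over all alternatives adjusted p ran from 0.0540 to 0.746 for Sod2, from 0.0983 to 0.995 for Cat and from 0.0741 to 0.997 for Gsr.

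**Figure D3:**
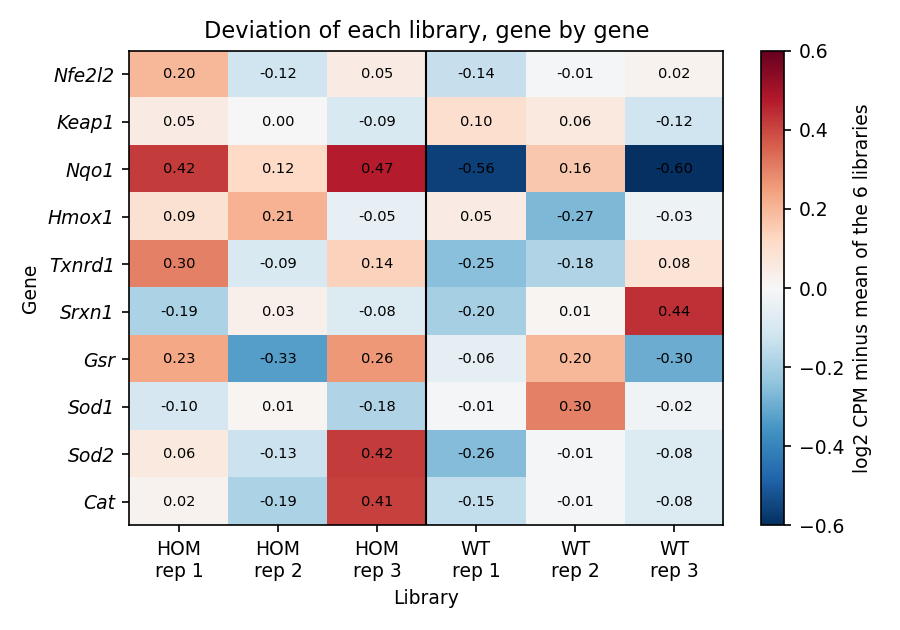
Log2 CPM of each gene in each library minus the gene's mean over the 6 libraries, with HOM libraries left and WT libraries right of the black line. HOM replicate 3 stands out for Sod2 (0.42) and Cat (0.41), WT replicate 3 for Srxn1 (0.44), and WT replicates 1 and 3 for low Nqo1 (-0.56 and -0.60).

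To compare genes with each other, counts were divided by the length of all annotated exons of the gene and scaled to TPM, which sums to the same total in every library. Hmox1 was the highest of the 10 in both genotypes, at 121 ± 8.30 TPM in HOM and 122 ± 28.5 TPM in WT libraries (SD, n = 3), and no library of another gene reached its range. Nfe2l2 came next, at 56.6 ± 6.52 and 59.2 ± 7.42 TPM, in a range that overlapped that of Cat (56.3 ± 17.1 and 54.4 ± 5.16 TPM). Sod1 (36.7 ± 2.66 and 46.1 ± 0.82 TPM), Srxn1 (34.6 ± 4.46 and 43.8 ± 13.0 TPM) and Txnrd1 (38.6 ± 5.36 and 36.7 ± 7.48 TPM) came below these, with overlapping ranges between neighbours, and WT replicate 3 brought Srxn1 up to 58.6 TPM, within the WT range of Nfe2l2. Sod2 (16.5 ± 4.69 and 15.3 ± 1.43 TPM) and Gsr (13.2 ± 3.37 and 13.3 ± 1.22 TPM) also overlapped. Keap1 and Nqo1 were the lowest. In HOM libraries their ranges overlapped, at 7.61 ± 0.30 and 7.67 ± 1.40 TPM, and in WT libraries Keap1 (8.61 ± 1.23 TPM) lay above Nqo1 (5.35 ± 0.88 TPM) without overlap. The ratio of Sod1 to Sod2 per length was 2.35, 2.91 and 1.74 in HOM and 3.12, 3.26 and 2.73 in WT libraries, overlapping through HOM replicate 2. Dividing by all annotated exons lowers the level of genes with long, rarely used exons, such as Sod2 with 10008 exonic bases.

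Other genes of the pathway were read from 8 lists with 108 genes, of which 98 were tested, 11 were higher and 11 lower in HOM libraries. That was 22.4%, near the share over all genes, where 9.67% of genes tested were higher and 11.5% lower. The count fell to 12 without HOM replicate 1, 9 without HOM replicate 3, 12 without WT replicate 1 and 13 without WT replicate 2. Calls over all genes fell in the same fits, from 2980 to 1587, 1576, 1602 and 1818. Genes for partners, relatives, competitors and turnover factors of NRF2 (16 genes, all tested) had 0 higher and 1 lower, or 6.25% against 21.1% of all genes. Their median log2 fold change was -0.05. The lower gene was Maff, a small MAF partner of NRF2, at 210 ± 28.6 against 317 ± 5.43 CPM (log2 change -0.60, SE 0.13, with adjusted p = 0.0109, and 0.0502 without HOM replicate 3). Mafg, another small MAF gene, had a log2 fold change of 0.29 (95% interval -0.03 to 0.61, adjusted p = 0.171) and was called higher without WT replicate 3 (0.46, adjusted p = 0.0474), Cul3 of 0.04 (95% interval -0.25 to 0.33, adjusted p = 0.859) and Bach1, a repressor that competes with NRF2, of -0.08 (95% interval -0.37 to 0.20, adjusted p = 0.677). These 3 were named after their values were seen.

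**Figure D4:**
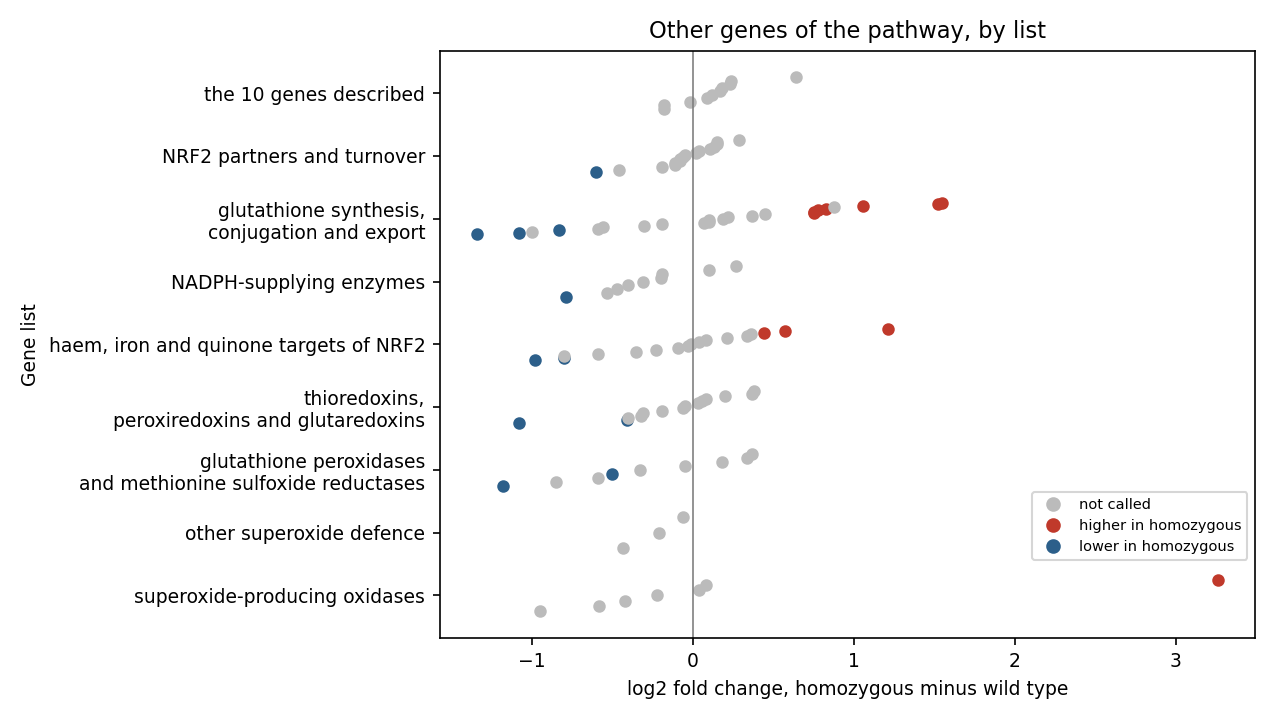
Log2 fold change, HOM minus WT, of each tested gene (points) in the 10 genes described and in the 8 lists of related genes, with red for higher, blue for lower and grey for genes that did not pass the test. All 10 genes described are grey, and glutathione genes have 7 red and 3 blue points of 23.

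Genes of glutathione synthesis, conjugation and export moved in both directions, with 7 higher and 3 lower of 23 tested, or 43.5% against 21.1% of all genes, and a median log2 fold change of 0.19. With Y-linked reads as a covariate 3 were higher and 3 lower. Gstm1, a glutathione transferase of the mu class, rose from 93.5 ± 3.25 to 196 ± 29.5 CPM (SD, n = 3, log2 fold change 1.06, SE 0.13, with adjusted p = 0.0010), while Gstm5 of the same class fell from 30.5 ± 9.12 to 11.9 ± 1.84 CPM (log2 change -1.34, SE 0.22, with adjusted p = 0.0032). Gstt2, of the theta class, rose by 1.55 (SE 0.29, with adjusted p = 0.0055) on the log2 scale, and Gsta4, which acts on lipid aldehydes, fell by 1.08 (SE 0.25, with adjusted p = 0.0149, and 0.0547 without WT replicate 2). Members of these families are alike in sequence, and reads with more than 1 alignment were not counted, which leaves the count of any single one uncertain. The 2 subunits of glutamate-cysteine ligase, which makes the first step of glutathione synthesis, differed in their values. Gclc, the catalytic subunit, was at 114, 56.6 and 97.7 CPM in HOM and 49.0, 51.7 and 58.2 CPM in WT libraries (log2 change 0.75, SE 0.22, with adjusted p = 0.0341), and HOM replicate 2 lay within the WT range. Its adjusted p was 0.121 without HOM replicate 1, 0.0976 without HOM replicate 3, 0.116 without WT replicate 1, 0.0986 without WT replicate 2 and 0.0650 without WT replicate 3. Gclm, the modifier subunit, was at 37.9, 30.7 and 35.7 against 28.4, 32.1 and 36.8 CPM (log2 change 0.10, 95% interval -0.21 to 0.41, adjusted p = 0.645). Slc7a11, the cystine importer, was at 1.96, 2.01 and 3.80 against 4.17, 4.13 and 7.11 CPM (log2 change -1.0, SE 0.35, with adjusted p = 0.0666, and 0.0437 without HOM replicate 3, a log2 fold change of -1.36). Gclc, Gclm and Slc7a11 were named after their values were seen. The number of called genes in this list was 5 without HOM replicate 3, 5 without WT replicate 1, 4 without WT replicate 2 and 6 without WT replicate 3. Calls over all genes in these fits were 1576, 1602, 1818 and 2123, against 2980 in the main fit.

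In the list of haem, iron and quinone genes 3 of 17 were higher and 2 lower, or 29.4% against 21.1% of all genes. The median log2 fold change was -0.01. Both ferritin subunits, which store iron, were among the higher. Fth1, the heavy chain, stood at 1040, 666 and 686 CPM in HOM and at 318, 341 and 376 CPM in WT libraries (log2 change 1.21, SE 0.18, with adjusted p = 0.0025), with every HOM library above every WT library. Ftl1, the light chain, was at 574, 454 and 540 against 347, 354 and 355 CPM (log2 change 0.57, SE 0.13, with adjusted p = 0.0137), but this adjusted p was 0.0529 without HOM replicate 1, 0.0524 without HOM replicate 3 and 0.0577 without WT replicate 1. Ftl1 shares 355 of 1340 exonic bases with Gm10252 on the opposite strand. Slc48a1, a haem transporter named after its value was seen, rose by 0.44 on the log2 scale (SE 0.12, with adjusted p = 0.0306). It passed the test in 1 of the 6 fits that left out a library, that without WT replicate 2, with adjusted p of 0.0517, 0.0524 and 0.0793 without HOM replicates 1, 2 and 3 and 0.0815 and 0.0897 without WT replicates 1 and 3. Akr1b3, or aldose reductase, fell from 72.9 ± 12.9 to 36.9 ± 10.9 CPM (log2 change -0.98, SE 0.21, with adjusted p = 0.0097). Nqo2, the paralogue of Nqo1, fell by 0.80 (SE 0.22, with adjusted p = 0.0286), opposite in sign to the 0.64 of Nqo1, but this adjusted p was 0.0936 and 0.0889 without HOM replicates 1 and 3 and 0.0941 and 0.0883 without WT replicates 1 and 2. 762 of its 4042 exonic bases overlap Serpinb6a on the opposite strand. The list's count was 2 without HOM replicate 1, HOM replicate 3 or WT replicate 1, where calls over all genes fell to 1587, 1576 and 1602.

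Of the thioredoxins, peroxiredoxins and glutaredoxins 0 of 14 were higher and 2 lower, or 14.3% against 21.1% of all genes, with a median log2 fold change of -0.05. Prdx2, a cytosolic peroxiredoxin that is abundant in red cells, fell from 94.3 ± 16.6 to 44.6 ± 6.85 CPM (log2 change -1.08, SE 0.16, with adjusted p = 0.0021) with every HOM library below every WT library. Erythroid markers were lower in the same libraries, at 270, 886 and 217 CPM in HOM replicates 1 to 3, where Prdx2 was at 37.6, 51.3 and 44.8 CPM, and at 900, 1480 and 1600 CPM in WT replicates 1 to 3, where Prdx2 was at 88.1, 113 and 81.8 CPM. The part of red cell RNA in Prdx2 was not tested. Prdx6, a peroxiredoxin that also reduces lipid peroxides, fell by 0.41 (SE 0.11, with adjusted p = 0.0249), but this adjusted p was 0.0835 and 0.0882 without HOM replicates 1 and 3 and 0.0750 and 0.0635 without WT replicates 2 and 3. The list's count was 1 in each of those fits except that without WT replicate 3, and calls over all genes were lower in all of them. Of the glutathione peroxidases and methionine sulfoxide reductases 0 of 9 were higher and 2 lower, or 22.2%, with a median of -0.33. Gpx7, a peroxidase of the endoplasmic reticulum, fell by 1.18 (SE 0.28, with adjusted p = 0.0161), on 158 reads over the HOM and 325 over the WT libraries, but this adjusted p was 0.0590 and 0.0588 without HOM replicates 1 and 3 and 0.0528 and 0.0604 without WT replicates 1 and 2. Msrb1, which repairs oxidised methionine, fell by 0.50 (SE 0.15, with adjusted p = 0.0443), with adjusted p of 0.121 and 0.127 without HOM replicates 1 and 3, 0.124 and 0.141 without WT replicates 1 and 2 and 0.0512 on library totals alone. No gene of this list was called without HOM replicate 1, HOM replicate 3 or WT replicate 1, where calls over all genes fell too. The calls were 2 higher and 0 lower without WT replicate 2, 2 higher and 1 lower without HOM replicate 2 and WT replicate 2 together, and 1 higher and 1 lower on library totals.

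Of the enzymes that supply NADPH to these reductases, 0 of 9 were higher and 1 lower, or 11.1% against 21.1% of all genes. The median log2 fold change was -0.31. The lower gene was Mthfd2, a mitochondrial folate enzyme, at 8.78 ± 0.25 against 15.2 ± 4.17 CPM (log2 change -0.79, SE 0.22, with adjusted p = 0.0318), with adjusted p of 0.0847 and 0.0893 without HOM replicates 1 and 3 and 0.101 and 0.105 without WT replicates 2 and 3. Without HOM replicate 2, 2 of the 9 were lower. Of 3 other genes of superoxide defence none was called. Sod3, the secreted dismutase, was at 10.8, 30.2 and 15.7 CPM in HOM and 24.2, 21.1 and 21.1 CPM in WT libraries (log2 change -0.21, SE 0.30, with adjusted p = 0.644), with HOM replicate 2 above and the other HOM libraries below all WT libraries. Without HOM replicate 2 its log2 fold change was -0.74 (adjusted p = 0.0147), and over all alternatives its adjusted p ran from 0.0120 to 0.894. For Park7, which protects cysteines from oxidation, the log2 fold change was -0.43 (SE 0.21, with adjusted p = 0.174). It was -0.13 without WT replicate 2, and with no filter on low counts Park7 was called (-0.44, adjusted p = 0.0293).

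Of the oxidases that produce superoxide or hydrogen peroxide, 7 of 9 were tested. Of these 1 was higher and 0 lower, or 14.3% against 21.1% of all genes, with a median log2 fold change of -0.22. Xdh, which encodes xanthine oxidoreductase, a maker of uric acid and reactive oxygen that also coats milk fat droplets, stood at 162, 52.9 and 206 CPM in HOM and at 15, 10.8 and 17.6 CPM in WT libraries (log2 change 3.26, SE 0.43, with adjusted p = 0.0013). HOM replicate 2 was the lowest of its group and still above every WT library. Adipocyte markers were higher in the same libraries, with Cfd at 49.5, 36.3 and 280 CPM in HOM replicates 1 to 3, and the part of adipocyte RNA in Xdh was not tested. Without HOM replicate 2, 1 gene of the list was also lower.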

How the data were processed

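Each library has 1 file of unnormalized counts of reads per Ensembl gene, as deposited. Per the submitters' processing notes, the tools were HTSeq 0.6.1, STAR 2.5.2b and Trimmomatic 0.32 and the build was mm10. For their settings, the strand option and the annotation: not given in the sources used here. Summary lines (45.0 to 49.8% of reads in a file) were left out. Symbols, positions and exon lengths came from GENCODE M21 (GRCm38, the assembly of mm10), which matched 38861 of 39059 genes.

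Libraries were grouped by title. Counts were filtered with filterByExpr (minimum count 10, minimum total 15), scaled with TMM and compared with edgeR 4.0.16 (quasi-likelihood test, no covariate, R 4.3.3), with Benjamini-Hochberg adjustment over 14099 genes and a threshold of 0.05. SE is the log2 fold change divided by the square root of F, and 95% intervals use the test's degrees of freedom. The test was checked on simulated data. CPM and TPM were computed here. DESeq2 1.42.0 was an alternative.

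The genes and lists were chosen with earlier results of these data known. Named genes are Lmna, the 10 genes and, per list, at most 4 called genes taken by p, or, in a list without calls, the 2 with the highest mean CPM. The 1.5-fold bound was chosen after the values were seen.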

Additional observations from a re-analysis of the deposited data

How the results depend on the processing

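The direction and the call of Lmna held in all 15 alternatives, and so did the absence of a call for 9 of the 10 genes, Nqo1 being the exception. The number of the 10 genes called was 0 in the main analysis and ran from 0 to 1 when a library was left out. It was also 1 without HOM replicate 2 and WT replicate 2 together, where 3858 of 14359 genes tested were called. Log2 fold changes that turned sign, none of them called with that sign, were those of Keap1 (0.02 without HOM replicate 3 and 0.02 without WT replicate 1), Srxn1 (0.02 without WT replicate 3) and Sod3 (0.07 without HOM replicate 1). Over the fits that left out a library they ran from -0.09 to 0.02, from -0.32 to 0.02 and from -0.74 to 0.07, and Sod3 was called at -0.74. In the same fits Cul3 ran from -0.05 to 0.13 and Bach1 from -0.16 to 0.03, neither called. With a covariate for Y-linked reads (present or not), 1932 genes were called in all and 13 in the pathway lists, and the calls of Gclc (adjusted p = 0.112), Mthfd2 (0.0913), Msrb1 (0.0876), Prdx6 (0.0809), Slc48a1 (0.0604) and Nqo2 (0.0534) ended. Leaving out a library gave 1576 to 4002 genes in all and 9 to 27 in the lists. With no filter on low counts 4054 genes of 25748 were called. The cause was not tested. With the replicate number as a block, 2437 genes were called in all, 0 of the 10 genes and 20 in the lists. Among named genes the block ended the calls of Prdx6 (adjusted p = 0.0513), Msrb1 (0.0553) and Slc48a1 (0.0556), gave one for Slc7a11 (0.0382) and changed no other. Deviations from the group means of same-numbered HOM and WT libraries correlated at -0.04, 0.02 and -0.10. HOM replicate 2 and WT replicate 2 did share a high level of Gm42418, at 1.3 and 1.39% of gene reads. Whether same-numbered libraries shared a batch cannot be told from these values. In alternatives chosen after seeing the data, the number of the 10 genes whose HOM and WT values did not overlap, 0 in CPM, was 2 in TPM, 1 on library totals and 0 on DESeq2 size factors. Depth limits Nqo1, at 31 to 63 reads per library, and Slc7a11, at 14 to 56.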
